A study of Mus musculus with 27 samples.

Results

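The genes described here are the 7 inhibitors of cyclin-dependent kinases (CDKs) of both mouse families: Cdkn1a, Cdkn1b and Cdkn1c of the Cip/Kip family, and Cdkn2a, Cdkn2b, Cdkn2c and Cdkn2d of the INK4 family. They were listed by gene symbol, with earlier results of these data known, and are 7 of 18193 genes named by 1 symbol in the array annotation. They were read by 9 probe sets. Of the 7 genes, 6 passed a filter that left out the 40% of genes with the lowest mean over all arrays. Cdkn2a did not pass, and its values come from the same fit without the filter.

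INK4 proteins bind CDK4 and CDK6 and keep D-type cyclins from activating them, while Cip/Kip proteins bind complexes of cyclins with CDK2 and other CDKs. Active CDKs phosphorylate the pocket proteins Rb1 and p107, which otherwise hold E2F transcription factors and restrain genes of S phase entry. In maturing red cell precursors, CDK inhibitors are known to accompany the last divisions and the exit from the cell cycle.

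The material was mouse foetal liver of embryonic day 14.5, and its cells were profiled at 0, 24 or 48 h of culture in a serum-rich medium, without other treatment. The wild type (WT) gave 3, 2 and 2 arrays at these times. The knockout of p107, whose gene is Rbl1 (p107KO), gave 2, 2 and 1, the knockout of Rb1 (Rb1KO) 5, 4 and 2, and the knockout of both (DKO) 2, 1 and 1. The sources used here do not give the strain, the altered part of each gene or the driver of any conditional deletion. Nor do they tell whether the arrays of 1 group stem from different embryos, so each p-value reflects the spread among these arrays alone, and that spread may be technical. Values are deposited MAS5 signals, differences are of log2(signal + 32), and errors of differences are standard errors (SE). "Rose", "fell" and "changed" mean an adjusted p under 0.05 from limma over 10916 genes.

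The livers held several cell types. Summed signal of 8 measured erythroid markers was 114586 to 277042 on all 27 arrays, although Hba-a1, an alpha-globin gene, read only 5.5 to 124.3 on its probe set. Rbl1 read 70.3 to 167.5 on arrays labelled p107KO or DKO and at least 798 on the others. Rb1 was lower on Rb1KO and DKO than on WT and p107KO arrays at 0 and 24 h, but at 48 h the DKO array (5994) lay within the WT range of 5746 to 6583, and Rb1KO read 4207 and 5453 beside 5314 in p107KO. At 48 h this gene therefore did not check the labels. Whether its probe set lies outside the altered part was not tested. Y-linked signal marked 9 arrays: all 4 of DKO, 3 of 11 of Rb1KO, 2 of 5 of p107KO and none of WT. The arrays least like the others of their time at 0 and 24 h were 4 in number, namely replicate 5 of Rb1KO in fresh cells and, after 24 h, the first replicate of each knockout genotype. In such bulk samples, fewer cells of a type and less RNA per cell cannot be told apart.

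The promoters of 4 members are shown because Cdkn2c, Cdkn2d and Cdkn1a were the members that rose without Rb1, and Cdkn2a holds the E2F letters that the other windows lacked. Each window is the 250 bases before a start site, 5′ to 3′ on the strand of the gene, from RefSeq's promoter table of build GRCm38.p6. The table held 9 windows of 6 members, and Cdkn1c had no entry. The windows lie at chr4:109666757-109667006 on the minus strand (Cdkn2c, the start listed first), chr9:21291210-21291459 on the minus strand (Cdkn2d), chr17:29093519-29093768 on the plus strand (Cdkn1a, the start listed second) and chr4:89294620-89294869 on the minus strand (Cdkn2a, the start listed first). Capitals mark the Sp1 letters GGGCGG, or CCGCCC where they lie on the other strand, and in Cdkn2a also the E2F letters TTTCCCGC.
Cdkn2c: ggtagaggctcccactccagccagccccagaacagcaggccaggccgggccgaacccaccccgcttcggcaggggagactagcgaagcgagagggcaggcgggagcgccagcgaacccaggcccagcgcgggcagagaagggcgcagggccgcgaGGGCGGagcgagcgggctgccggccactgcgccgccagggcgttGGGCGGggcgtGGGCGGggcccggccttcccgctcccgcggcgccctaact
Cdkn2d: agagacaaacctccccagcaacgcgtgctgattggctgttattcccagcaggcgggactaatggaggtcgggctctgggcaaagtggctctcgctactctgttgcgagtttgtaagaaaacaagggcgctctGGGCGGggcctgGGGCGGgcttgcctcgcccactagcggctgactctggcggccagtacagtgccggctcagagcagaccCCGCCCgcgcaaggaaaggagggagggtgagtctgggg
Cdkn1a: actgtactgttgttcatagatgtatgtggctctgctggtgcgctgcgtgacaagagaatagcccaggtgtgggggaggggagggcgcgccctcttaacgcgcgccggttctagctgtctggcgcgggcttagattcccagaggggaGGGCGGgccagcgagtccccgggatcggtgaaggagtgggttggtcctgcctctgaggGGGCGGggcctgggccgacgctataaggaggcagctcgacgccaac
Cdkn2a: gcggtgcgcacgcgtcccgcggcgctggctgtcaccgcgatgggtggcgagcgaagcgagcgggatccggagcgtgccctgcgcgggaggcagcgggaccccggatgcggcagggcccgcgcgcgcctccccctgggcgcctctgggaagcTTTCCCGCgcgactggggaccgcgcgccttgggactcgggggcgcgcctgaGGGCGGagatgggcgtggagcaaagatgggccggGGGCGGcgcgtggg

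The letters searched on both strands were TTTCCCGC, TTTGGCGC, TTTCGCGC and TTTGCCGC for E2F, AGATAA for GATA, CCACACCC and CCGCACCC for KLF, and GGGCGG for Sp1, and no matches overlapped in the member windows. The E2F letters were in 1 of the 9 member windows and in 1.86% of 32851 windows of this length. That window was of the Cdkn2a start listed first, at -99 to -92 from it. The window of the other Cdkn2a start, at chr4:89282193-89282442 on the minus strand, lacked them. Cdkn2a encodes p16 and also the p53 activator Arf, and which of them each start serves was not determined. The Sp1 letters were in 5 of the 9 member windows and in 32.7% of all windows. They occurred 3 times each in the windows shown of Cdkn2c and Cdkn2d, 2 times each in those of Cdkn1a and Cdkn2a, and 1 time in Cdkn1b, and were absent from the other window of Cdkn1a, Cdkn2a and Cdkn2c. The GATA letters (9.99% of all windows) and the KLF letters (4.68%) were in none of the 9. Cdkn2b held none of the 4 motifs. A match describes letters only.

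Loss of Rb1 moved the families unevenly. With each culture time weighted equally, Cdkn1a, Cdkn2c and Cdkn2d were higher in Rb1KO than in WT and Cdkn2b was lower, so 4 of 6 tested members changed, where 18.9% of all tested genes did. The median log2 difference of the 6 was 0.43, against -0.07 over all genes. Cdkn1b and Cdkn1c did not pass. In the same comparison 5 of 7 megakaryocyte markers fell. Their sums in Rb1KO and WT overlapped at 0 h (15335 to 27628 and 24387 to 34821) and 24 h (10415 to 16963 and 13611 to 22302). At 48 h the sums did not overlap (40397 to 56850 and 59904 to 65128), but 0 of 7 markers passed at that time alone. No list of the other cell types had more than 1 marker past the threshold for the mean over times. At 48 h 2 of 10 hepatoblast and hepatocyte markers fell (median -1.27). The part of these cell types in the member differences was not tested.

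**Figure D1:**
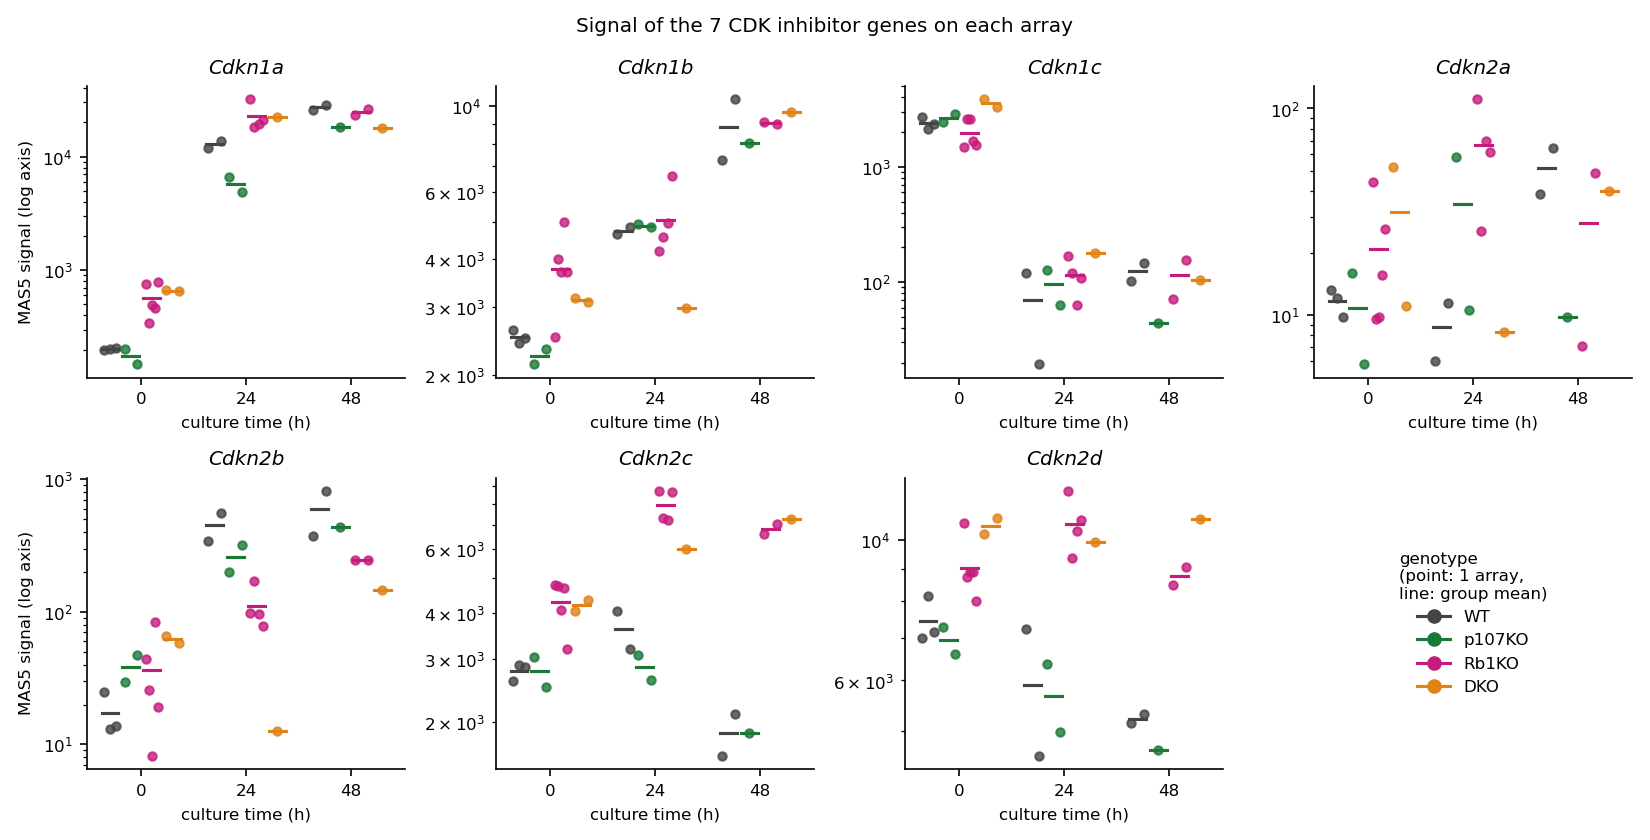
MAS5 signal (log axis) of each of the 7 genes on each of the 27 arrays, by culture time and genotype; a point is 1 array and a line a group mean. Cdkn2c and Cdkn2d lie higher in Rb1KO and DKO, Cdkn2b lies lower after culture, Cdkn1a climbs and Cdkn1c drops within 24 h, and Cdkn2a stays below 111.

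Cdkn1a encodes p21, a Cip/Kip inhibitor known as a p53 target. In fresh cells its signal was 198.3, 204.6 and 206.5 in WT, and 340.7, 466.2, 498.3, 758.3 and 780.4 in Rb1KO. Every Rb1KO array lay above every WT array. The fitted difference at 0 h was 1.29 ± 0.210 on the log2 scale (2.45-fold, adjusted p = 0.00182). At 0 h 2 of 6 members passed, both higher (Cdkn1a and Cdkn2c), where 0.614% of all genes did.

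After 24 h Cdkn1a read 11914 and 13813 in WT and 18125, 19290, 21161 and 31928 in Rb1KO. The ranges stayed apart, but the difference of 0.78 ± 0.249 missed the threshold (adjusted p = 0.0577). Without Rb1KO replicate 2 at 24 h it was 0.87 with adjusted p = 0.0426. At 48 h the arrays overlapped, at 25666 and 28499 in WT and 23127 and 26229 in Rb1KO, with a difference of -0.13 (95% interval -0.73 to 0.46). Averaged over times the difference was 0.65 ± 0.145 (1.56-fold, adjusted p = 0.00275).

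The Cdkn1a difference thus narrowed with culture: its change from 0 to 48 h was -1.43 ± 0.356 (adjusted p = 0.0241). For that change 2 of 6 members passed, Cdkn2c upward and Cdkn1a downward, against 3.48% of all genes. The Cdkn1a call was lost (adjusted p 0.0528 to 0.118) without WT replicate 1 at 0 h, either WT array at 48 h or either Rb1KO array at 48 h, and the adjusted p was 0.194 when the 9 arrays of Y-linked signal were left out. The dimmer probe set of Cdkn1a gave 2.07 ± 0.464 at 0 h (adjusted p = 0.0708 over all probe sets), with overlapping arrays (21.0 to 77.8 in WT and 53.3 to 609.2 in Rb1KO). Nor did it pass for the mean over times (0.97 ± 0.320, adjusted p = 0.0651) or the change from 0 to 48 h (-2.22 ± 0.786, adjusted p = 0.24).

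Cdkn1b encodes p27, the Cip/Kip inhibitor removed by the SKP2 ubiquitin ligase. At 0 h it read 2422, 2496 and 2622 in WT and 2508, 3693, 3704, 4006 and 4994 in Rb1KO. All Rb1KO arrays but 1 exceeded WT, and the difference of 0.55 ± 0.169 did not pass (adjusted p = 0.264). It was 0.69 (adjusted p = 0.0401) without Rb1KO replicate 1, the low array. At 24 h the difference was 0.07 (95% interval -0.34 to 0.49) and at 48 h 0.05 (-0.43 to 0.54).

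Cdkn1c encodes p57, an imprinted Cip/Kip inhibitor of foetal growth. At 0 h it read 2139, 2355 and 2702 in WT and between 1473 and 2617, with a median of 1684, in Rb1KO, so the groups overlapped. Averaged over times the difference was 0.07 (95% interval -0.36 to 0.51, adjusted p = 0.847). After culture its values were low and scattered, from 19.3 to 177.8 over all genotypes. At 24 h the difference of 0.68 did not pass (adjusted p = 0.278), and became 1.47 (adjusted p = 0.0430) without WT replicate 1.

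Cdkn2c encodes p18, an INK4 protein. In Rb1KO against WT it had the smallest adjusted p of the members for the mean over times, at 24 h and at 48 h, but not at 0 h. At 0 h it read 2600, 2849 and 2886 in WT and 3180, 4088, 4688, 4770 and 4790 in Rb1KO. At 24 h it read 3195 and 4049 in WT against 7226, 7309, 8622 and 8707 in Rb1KO. At 48 h it read 1617 and 2111 in WT against 6607 and 7069 in Rb1KO. The groups did not overlap at any of the 3 times, which held in 1 direction for 2.24% of all tested genes and for no other member.

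The Cdkn2c difference was 1.53-fold at 0 h (0.61 ± 0.141, adjusted p = 0.0445), 2.20-fold at 24 h (1.13 ± 0.167, adjusted p = 0.000139) and 3.65-fold at 48 h (1.87 ± 0.193, adjusted p = 6.8e-07). Its mean over times was 1.20 ± 0.0970 (adjusted p = 9.6e-09), and with the 9 arrays of Y-linked signal left out it was 1.21 (adjusted p = 1.4e-05). The widening from 0 to 48 h was 1.26 ± 0.238 (adjusted p = 0.00303), with adjusted p = 0.123 without those arrays. The call at 0 h was lost without any one of the 3 WT arrays or of Rb1KO replicates 1, 2, 3 and 4 at that time, at 0.56 to 0.64 with adjusted p of 0.0823 to 0.355.

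Cdkn2d encodes p19, another INK4 inhibitor of CDK4 and CDK6. At 0 h its signal was 6995, 7162 and 8141 in WT and 7995, 8733, 8877, 8891 and 10603 in Rb1KO, which overlapped (0.28 ± 0.136, adjusted p = 0.758). At 24 h it was 4566 and 7221 in WT and 9336, 10321, 10721 and 11932 in Rb1KO. At 48 h it was 5136 and 5315 in WT and 8471 and 9051 in Rb1KO. After culture all Rb1KO arrays thus lay above all WT arrays.

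The Cdkn2d difference was 1.83-fold at 24 h (0.87 ± 0.161, adjusted p = 0.00143) and 1.67-fold at 48 h (0.74 ± 0.186, adjusted p = 0.0108). Averaged over times it was 0.63 ± 0.0938 (adjusted p = 4.1e-05). The 24 h value fell to 0.54 (adjusted p = 0.118) without WT replicate 2, the lower WT array. The 48 h call was lost without either WT array or Rb1KO replicate 2 at that time (0.69 to 0.77, adjusted p 0.0572 to 0.107).

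Cdkn2b encodes p15, an INK4 protein known to be induced by TGF-beta, and went the other way. Its signal at 0 h was near the floor of the array, at 13.0, 13.8 and 25 in WT and 8.2, 19.3, 25.7, 44.2 and 83.2 in Rb1KO. At 24 h it read 342.5 and 559.0 in WT and 78.4, 96.0, 98.0 and 170.5 in Rb1KO, with no overlap. At 48 h it read 374.2 and 820.4 in WT and 246.4 and 247.1 in Rb1KO, again with no overlap.

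The fitted Cdkn2b difference at 24 h was -1.76 ± 0.377 (3.39-fold lower, adjusted p = 0.00486), and at 48 h -1.08 ± 0.436 (adjusted p = 0.130). Thus 3 of 6 members passed at 24 h (Cdkn2c and Cdkn2d higher, Cdkn2b lower), against 7.63% of all genes. At 48 h 2 of 6 passed, Cdkn2c and Cdkn2d, both higher, against 10.4%. The groups did not overlap for 4 of 6 members at 24 h and 3 of 6 at 48 h, and for 27.9% and 52% of all genes. Averaged over times Cdkn2b was lower by -0.82 ± 0.219 (adjusted p = 0.0107).

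The change of the Cdkn2b difference from 0 to 24 h was -2.14 ± 0.493 (adjusted p = 0.0416), the 1 of 6 members past the threshold, against 0.824% of all genes. For the change from 24 to 48 h, 0 of 6 passed, against 0.0458% of all genes; 2 members had an unadjusted p under 0.05 and each alternative setting also gave 0. Being dim, Cdkn2b depended on the value added before taking logs: with 1 in place of 32 the adjusted p became 0.0534 at 24 h, 0.122 for the mean and 0.147 for the change to 24 h. The 24 h call was lost without WT replicate 2 (-1.43, adjusted p = 0.125), the mean without WT replicate 2 at 24 h (0.0527) or at 48 h (0.0631), and the change without any WT array at 0 or 24 h, Rb1KO replicates 1 or 2 at 0 h, or Rb1KO replicates 1, 3 or 4 at 24 h (adjusted p 0.0505 to 0.278).

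Cdkn2a, which encodes p16 and, from another reading frame, the p53 activator Arf, read 5.8 to 110.8 over all arrays. At 24 h it was 6 and 11.5 in WT and 25.6, 61.4, 70.0 and 110.8 in Rb1KO, and 8.3 on the DKO array. The Rb1KO arrays lay above WT, but the difference of 1.21 ± 0.387 did not pass in the fit without the filter (adjusted p = 0.0840). At 48 h WT read 38.5 and 64.4 and Rb1KO 7.1 and 48.7, which overlapped. No 2 neighbours in the order of its 12 group means were separated by their ranges.

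Leaving out the 9 arrays with Y-linked signal also ended the calls of Cdkn2c at 0 h (0.62, adjusted p = 0.238) and Cdkn2d at 48 h (0.69, adjusted p = 0.180), and that of the Cdkn2b change from 0 to 24 h (-2.49, adjusted p = 0.0579). The calls of Cdkn1a at 0 h (1.32, adjusted p = 0.0214), Cdkn2b and Cdkn2d at 24 h (-1.94 and 0.93, adjusted p = 0.00956 and 0.00869) and Cdkn2c at 24 and 48 h (1.17 and 1.82, adjusted p = 0.00300 and 0.00122) were made without them too.

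**Figure D2:**
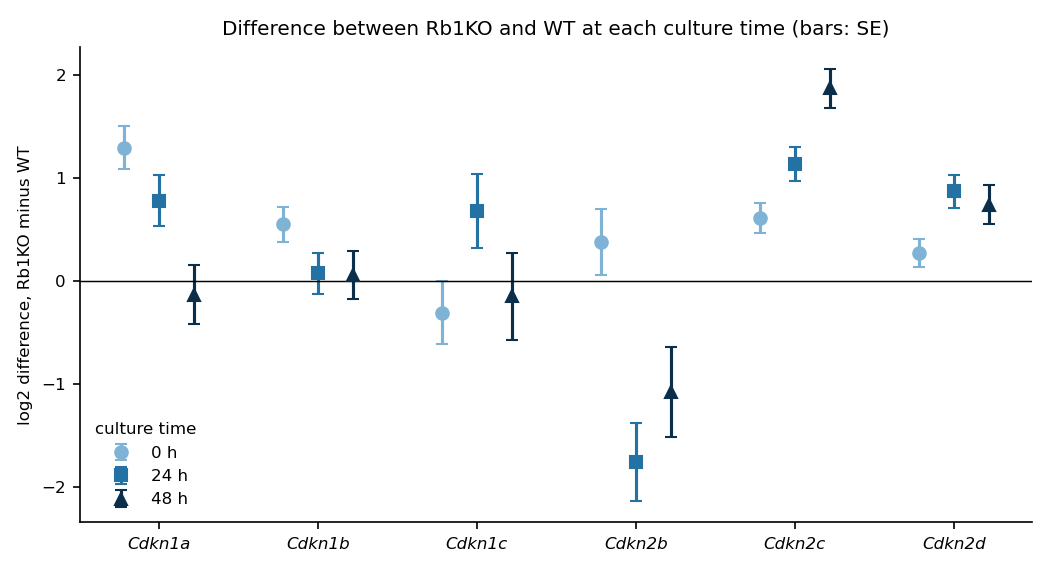
Log2 difference between Rb1KO and WT (vertical axis) for the 6 tested genes at 0, 24 and 48 h; symbols are fitted differences and bars SE. Cdkn2c widens from 0.61 to 1.87, Cdkn1a shrinks from 1.29 to -0.13, and Cdkn2b turns from 0.38 to -1.76 at 24 h.

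Culture moved Cdkn1a and Cdkn1c by more than any genotype did. In WT, Cdkn1a rose 54.7-fold in the first 24 h (5.77 ± 0.262, adjusted p = 4.5e-13) and Cdkn1b 1.88-fold (0.91 ± 0.212, adjusted p = 0.00168), while Cdkn1c fell (-4.77 ± 0.382, adjusted p = 1.8e-09). Cdkn2b rose from near the floor (3.26 ± 0.398, adjusted p = 9.5e-07). The added 32 sets much of the size of a difference where 1 side is this dim, so no fold is given for these changes of Cdkn1c and Cdkn2b. The same holds for the dimmer probe set of Cdkn1a, at 21 to 77.8 in WT at 0 h. It rose by 4.38 ± 0.580 (adjusted p = 5.4e-06 over all probe sets), and in Rb1KO by 3.30 ± 0.426 (adjusted p = 1.9e-06). The dimmer probe set of Cdkn1b gave 0.83 ± 0.390 in WT and did not pass (adjusted p = 0.158 over all probe sets). By the brightest probe sets 4 of 6 members changed in WT, against 36.9% of all genes. Cdkn2c (0.37, adjusted p = 0.104) and Cdkn2d (-0.37, adjusted p = 0.0957) did not pass; without WT replicate 1 at 24 h Cdkn2d was -0.70 with adjusted p = 0.00847.

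From 24 to 48 h in WT, Cdkn1a (1.07 ± 0.287, adjusted p = 0.00855) and Cdkn1b (0.87 ± 0.232, adjusted p = 0.00842) rose again, and Cdkn2c fell 1.93-fold (-0.95 ± 0.193, adjusted p = 0.00115). These were 3 of 6 members, against 25.2% of all genes. The dimmer probe sets did not pass, at 1.955 ± 0.635 for Cdkn1a (adjusted p = 0.053 over all probe sets) and 1.04 ± 0.427 for Cdkn1b (adjusted p = 0.139). Over these hours 7 of 7 megakaryocyte (median 1.75), 5 of 8 neutrophil, 5 of 10 macrophage, 4 of 10 hepatocyte and 4 of 8 stromal markers rose and 3 of 7 erythroid markers fell, and their part in the member changes was not tested. Cdkn1a missed the threshold without WT replicate 1 at 24 h (0.97, adjusted p = 0.0651) or replicate 2 at 48 h (1.00, adjusted p = 0.0593), and Cdkn1b without the latter (0.61, adjusted p = 0.135). Cdkn1c at 0.81 (adjusted p = 0.163) became 1.6 (adjusted p = 0.0139) without WT replicate 1 at 24 h.

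In Rb1KO 5 of 6 members changed in the first 24 h, against 51% of all genes. Cdkn1a rose 38.4-fold (5.26 ± 0.193, adjusted p = 3.2e-15), Cdkn2b by 1.13 ± 0.292 from near the floor (adjusted p = 0.00279), Cdkn2c 1.86-fold (0.89 ± 0.129, adjusted p = 5.0e-06) and Cdkn1b 1.35-fold (0.43 ± 0.155, adjusted p = 0.0242), and Cdkn1c fell (-3.78 ± 0.280, adjusted p = 2.1e-10). Cdkn2d, at 0.23, did not pass (adjusted p = 0.131). The dimmer probe set of Cdkn1b gave 0.93 ± 0.287 (adjusted p = 0.0167 over all probe sets). The Cdkn1b call was lost without Rb1KO replicate 1 at 0 h (0.29, adjusted p = 0.0872) or replicate 4 at 24 h (0.30, adjusted p = 0.122), under quantile normalization (0.33, adjusted p = 0.0737) and when the Y-positive arrays were left out (0.48, adjusted p = 0.0741), which also ended the Cdkn2b call (0.78, adjusted p = 0.0649).

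From 24 to 48 h in Rb1KO 1 of 6 members changed, against 21% of all genes: Cdkn1b rose 1.80-fold (0.85 ± 0.201, adjusted p = 0.00400), with adjusted p = 0.0594 without Rb1KO replicate 1 at 48 h and 0.101 when the Y-positive arrays were left out. The dimmer probe set of Cdkn1b gave 0.67 ± 0.370 and did not pass (adjusted p = 0.338 over all probe sets). Cdkn2b at 1.00 (adjusted p = 0.0613) passed without Rb1KO replicate 2 at 24 h (1.19, adjusted p = 0.0349). Cdkn2c, which fell in WT over these hours, changed by -0.21 (adjusted p = 0.401) in Rb1KO. The difference between those changes was 0.73 ± 0.255 and did not pass (adjusted p = 0.411).

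The fall of Cdkn1c ran beside falls of markers of several cell types. All 10 hepatoblast and hepatocyte markers, 8 of 8 stromal and 6 of 7 tested endothelial markers fell in WT over the first 24 h, as did 6 of 7 megakaryocyte (median -0.73) and 5 of 10 macrophage markers (median -1.63). Summed signal of hepatocyte markers was 188084 to 258599 at 0 h, 6279 to 28690 at 24 h and 3353 to 41676 at 48 h; stromal sums went from 9471 to 15587 down to 500.1 to 1326 at 24 h, and endothelial sums from 3955 to 6325 down to 317.5 to 639.6. Erythroid sums were 122013 to 154992 at 0 h and 143643 to 277042 at 24 h. The part of these cell types in the Cdkn1c fall was not tested.

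**Figure D3:**
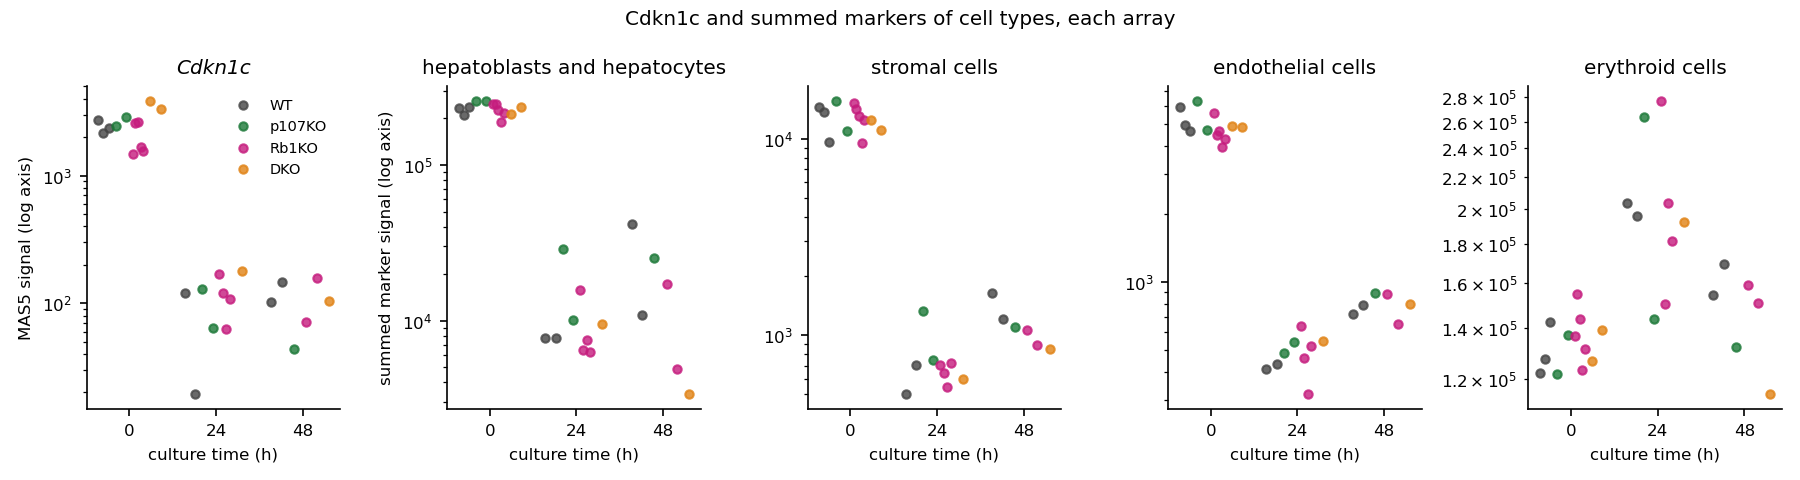
Signal of Cdkn1c and summed signal of the markers of 4 cell types (log axes) on each of the 27 arrays, by culture time and genotype. Cdkn1c and the hepatocyte, stromal and endothelial sums drop from 0 to 24 h, whereas the erythroid sums do not.

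Loss of p107 alone changed 0 of 6 members when times were averaged, against 0.0183% of all genes (2 genes). Each alternative setting also gave 0, and 1 member, Cdkn1a, had an unadjusted p under 0.05. Its mean difference was -0.64 ± 0.175 (95% interval -1.01 to -0.28, adjusted p = 0.367). At 24 h the p107KO arrays read 4885 and 6641, below both WT arrays, a ratio of means of 0.448; at 48 h the p107KO array read 18241. At 0 h they read 148.6 and 201.8, which overlapped WT. The dimmer Cdkn1a probe set gave 0.05 ± 0.386.

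Loss of both proteins, set against WT, changed 4 of 6 members, against 13.3% of all genes. Cdkn2c (1.10 ± 0.126, adjusted p = 2.3e-06), Cdkn2d (0.78 ± 0.122, adjusted p = 1e-04) and Cdkn1a (0.58 ± 0.188, adjusted p = 0.0405) were higher, and Cdkn2b was lower (-1.39 ± 0.284, adjusted p = 0.00157). The dimmer probe set of Cdkn1a gave 1.07 ± 0.414 and did not pass (adjusted p = 0.16 over all probe sets). Cdkn2c read 4070 and 4359, 5997 and 7280 in DKO at 0, 24 and 48 h, and Cdkn2d 10211 and 10820, 9915 and 10776. All DKO arrays and no WT array carried Y-linked signal, so that difference and loss of both proteins cannot be told apart here.

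In DKO the Cdkn2b call depended on the 24 h time, which had 1 DKO array. Cdkn2b read 58.1 and 66.3 at 0 h, 12.6 at 24 h and 146.9 at 48 h. Leaving out the 24 h array drops that time from the mean, and the difference from WT was then -0.39 (adjusted p = 0.627). At 0 h, near the floor, DKO lay above WT (13 to 25). At 48 h it lay below WT (374.2 to 820.4). Cdkn1a lost its call (0.48 to 0.62, adjusted p 0.0502 to 0.231) without any one WT array, either DKO array at 0 h or the DKO array at 24 h. Without the DKO array at 48 h, which drops that time from the mean, Cdkn1a was 1.18 (adjusted p = 0.00255) and Cdkn2c 0.66 (adjusted p = 0.00990). Cdkn1c, at 0.54 (adjusted p = 0.231), became 0.80 (adjusted p = 0.0378) without WT replicate 1 at 24 h.

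Set against p107KO, DKO also had 4 of 6 members changed, against 7% of all genes. In this comparison 6 of 10 hepatoblast and hepatocyte markers fell (median -1.30). Their sums at 0 h were 257938 and 258599 in p107KO and 211041 and 235026 in DKO. At 24 h they were 10018.5 and 28690 in p107KO and 9439 in DKO, and at 48 h 25247 and 3353. The part of these cells in the member differences was not tested. Cdkn1a (1.23 ± 0.203, adjusted p = 0.000351), Cdkn2c (1.21 ± 0.136, adjusted p = 4.3e-06) and Cdkn2d (0.87 ± 0.132, adjusted p = 0.000127) were higher, and Cdkn2b was lower (-1.21 ± 0.308, adjusted p = 0.0153). The dimmer probe set of Cdkn1a gave 1.02 ± 0.449 and did not pass (adjusted p = 0.328 over all probe sets). Without the DKO array at 24 h, which drops that time from the mean, Cdkn1a was 0.86 (adjusted p = 0.0621) and Cdkn2b -0.48 (adjusted p = 0.726). Leaving out the 48 h array of either genotype likewise drops 48 h. Cdkn1a was then 1.86 (adjusted p = 3.5e-05) and Cdkn2b missed the threshold (-1.12, adjusted p 0.102 to 0.105).

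Adding loss of p107 to loss of Rb1 changed 0 of 6 members, against 0.999% of all genes, with 1 member (Cdkn2b, -0.57, adjusted p = 0.314) at an unadjusted p under 0.05 and 0 under each alternative setting. The intervals were -0.36 to 0.14 for Cdkn2c, -0.09 to 0.38 for Cdkn2d and -0.43 to 0.31 for Cdkn1a. The test of whether loss of p107 acted differently with and without Rb1 called 0 of 6 members, against 0% of all genes, and 0 under each alternative setting. Cdkn1a alone had an unadjusted p under 0.05 there (0.58 ± 0.249, adjusted p = 1).

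**Figure D4:**
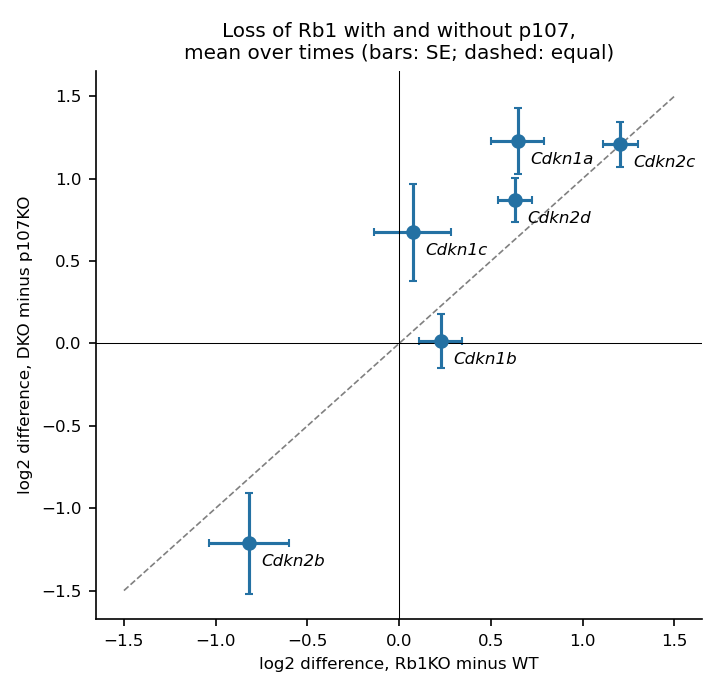
Log2 difference by loss of Rb1 with p107 present (Rb1KO minus WT, horizontal axis) and absent (DKO minus p107KO, vertical axis), mean over times, for the 6 tested genes; bars are SE and the dashed line marks equal differences. Cdkn2c sits at 1.20 and 1.21, Cdkn2b is lowest on both axes, and the pairs of groups share no array.

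The order of the 12 group means differed by gene. By group means, Cdkn2c and Cdkn2d had all 6 groups without Rb1 above all 6 groups with it. How many of all genes share this order was not counted. At 0 h the single Cdkn2d arrays of Rb1KO (7995 to 10603) and WT (6995 to 8141) overlapped. The highest group mean of Cdkn2c was 7966 (Rb1KO, 24 h) and the lowest 1864 (WT, 48 h), a ratio of 4.27, and for Cdkn2d 10776 (DKO, 48 h) and 4665 (p107KO, 48 h), a ratio of 2.31. Cdkn1a was ordered mainly by time, from 175.2 (p107KO, 0 h) to 27083 (WT, 48 h), a ratio of 155. All 4 fresh groups of Cdkn1c (1982 to 3580) lay above all 8 cultured groups (43.8 to 177.8), whose order mixed 24 and 48 h and whose ranges mostly overlapped. For Cdkn2d neighbours with Rb1 overlapped from WT at 0 h down to WT at 48 h, and for Cdkn2c the fresh WT and p107KO groups overlapped. With 3 of the 12 groups being 1 array, a gap between neighbours that include one of them has no spread to be set against.

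Cdkn2c and Cdkn2d moved together across arrays. With each array centred on the mean of its culture time, their log2 values had r = 0.927 over 27 arrays, which share genotypes and processing; within the 12 arrays with Rb1 it was 0.609, and within the 15 without Rb1 0.551. Cdkn2b and Cdkn2c had r = -0.512 over all arrays but 0.222 and 0.462 within these sets.

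**Figure D5:**
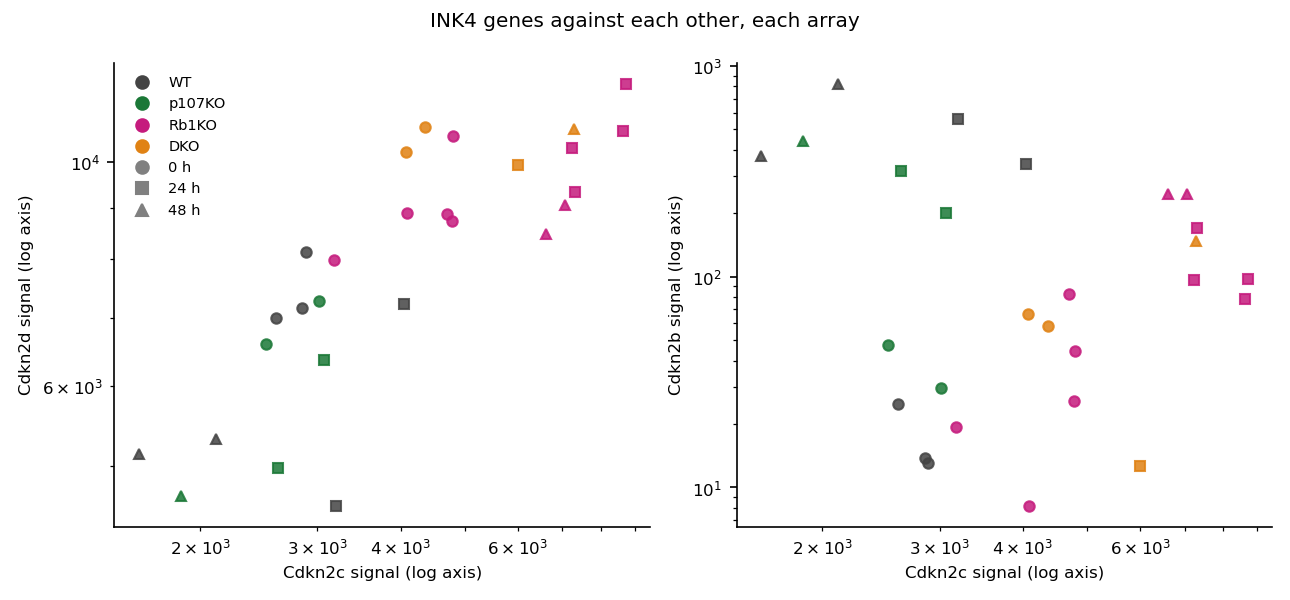
Signal of Cdkn2d (left) and Cdkn2b (right) against Cdkn2c on the 27 arrays (log axes); colours are genotypes and symbols culture times. Cdkn2c and Cdkn2d are both high without Rb1, and Cdkn2b is high on cultured arrays with Rb1.

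The genes most like each member by that centred correlation were also listed. For Cdkn2c they were Ywhah (0.965), Eri1 (0.954) and Zfp367 (0.952), but within the 12 arrays with Rb1 their r was 0.473, -0.256 and -0.0394. For Cdkn2d they were Ywhah (0.935), Cdkn2c and Faf1 (0.917). Within the arrays with Rb1, Ywhah had 0.515 and Faf1 0.487, and within those without it 0.51 and 0.36. For Cdkn2b they were Nyx (0.899), Usp4 (0.855) and Sqstm1 (0.844), with 0.657 to 0.789 within the arrays with Rb1 and 0.701 to 0.862 within those without it. Cdkn1a was nearest to Nudt4 (0.864), Kcmf1 (0.853) and Zbtb2 (0.853), with 0.373, 0.450 and 0.554 within the 15 arrays without Rb1. Cdkn1b was nearest to Prkab1 (0.773), Kat6a (0.772) and Ptbp3 (0.700), with 0.372 to 0.650 within the arrays with Rb1. Cdkn1c was nearest to Fam189b (0.724), Trim71 (0.686) and Robo4 (0.632), with 0.382 to 0.717 within those without it.

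Among the kinases and cyclins that the inhibitors bind, 5 of 10 tested genes rose and 2 fell in Rb1KO against WT, mean over times, where 18.9% of all genes changed (1127 higher and 935 lower of 10916), with a median of 0.21. Ccne2 (1.52 ± 0.148, adjusted p = 1.3e-07) and Ccne1 (1.09 ± 0.111, adjusted p = 2.2e-07), the E-type cyclins of S phase entry, and their kinase gene Cdk2 (0.64 ± 0.118, adjusted p = 0.000424) rose, as did Cdk1 of mitosis (0.65 ± 0.0761, adjusted p = 1.8e-06). Ccne1 widened with time as Cdkn2c did, from 0.32 at 0 h to 2.11 at 48 h (change 1.79 ± 0.272, adjusted p = 0.000429). Of the genes for the breakdown of Cip/Kip proteins 4 of 13 rose and 0 fell (median 0.10), against the same 18.9% of all genes, among them Skp2 of the p27 ligase (0.69 ± 0.115, adjusted p = 0.000159) and Dtl, a receptor of the p21 ligase (0.57 ± 0.112, adjusted p = 0.000823).

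Of 18 transcription factors that act on these genes, 1 rose and 5 fell (median -0.02), against 18.9% of all genes: E2f1 rose (0.80 ± 0.152, adjusted p = 0.000588), and Smad3, which carries TGF-beta signals (-0.51 ± 0.0992, adjusted p = 0.000809), Klf6 (-0.53 ± 0.106, adjusted p = 0.000868) and Cebpa (-0.54 ± 0.145, adjusted p = 0.0119) were among those that fell. The Smad3 difference was 0.04 (adjusted p = 0.923) at 24 h and -1.31 ± 0.197 (adjusted p = 8.6e-05) at 48 h. Of 14 Polycomb and other repressors of the Cdkn2a and Cdkn2b locus, 6 rose and 0 fell (median 0.26), against 18.9%, including Cbx2 (0.85 ± 0.137), Phc1 (0.70 ± 0.118), Ezh2 (0.63 ± 0.112) and Bmi1 (0.45 ± 0.0994), with adjusted p from 9.6e-05 to 0.00256.

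Of 21 p53 targets other than Cdkn1a, 3 rose and 2 fell in Rb1KO against WT (median -0.13), a share near the 18.9% of all genes. Trp53inp1, a p53-induced nuclear protein gene, differed by 1.42 ± 0.150 in fresh cells (adjusted p = 1.2e-05) and by -0.05 at 48 h, a change of -1.47 ± 0.254 (adjusted p = 0.00150). Polk, a translesion DNA polymerase gene, was higher by 0.76 ± 0.125 on average (adjusted p = 0.000132), at 0.64, 0.77 and 0.87 at 0, 24 and 48 h, and that difference showed no called change with time (adjusted p = 0.850 from 0 to 48 h). Gadd45a, a stress-induced growth arrest gene, was lower (-0.81 ± 0.103, adjusted p = 5.7e-06), as was Mdm2, the ubiquitin ligase for p53 (-0.44 ± 0.134, adjusted p = 0.0226). In WT culture, 14 of the 21 rose and 1 fell by 24 h (median 1.16, against -0.09 over all genes, of which 36.9% changed), with Trp53inp1 at 16.2-fold. From 24 to 48 h 10 rose and 0 fell, against 25.2% of all genes.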

How the data were processed

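Biotin-labelled total RNA was hybridized to Affymetrix mouse arrays, per the labels' protocols. The authors deposited linear probe set intensities computed by MAS5, and GCOS 1.4 is the software that the submitters' processing notes name. The trimmed mean, leaving out 2% of values at either end, was 491.9 to 497.7 on every array, so arrays were already scaled. Precision is limited by how many arrays each group has.

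Probe sets with 1 symbol in the platform annotation were used (34945 of 45037), each gene by its brightest. Symbols were updated through the GRCm38.p6 gene table. limma 3.58.1 in R 4.3.3 was fitted with a variance trend on log2(signal + 32), with 1 mean per group over 27 arrays, 15 residual and 7.17 prior degrees of freedom; groups of 1 array borrow the spread of the others. The added 32 shrinks differences of dim genes. Tests were two-sided with Benjamini-Hochberg adjustment over 10916 genes and a threshold of 0.05, in 16 comparisons. Steps were tested on simulated data. Figures were drawn with matplotlib 3.10.9.

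Members, gene lists and markers were chosen with earlier results of these data known. Named are the 7 members, the 3 genes most like each tested member, up to 4 genes per list with the smallest adjusted p for Rb1KO against WT over times, and Rb1, Rbl1 and Rbl2. Hba-a1 was named after its values were seen. Alternatives were other added values (1, 100), filters (none, 60%), quantile normalization, the mean over probe sets, array weights, the replicate number as a block, only the groups compared, and leaving out arrays.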

Additional observations from a re-analysis of the deposited data

Results flagged for a closer look

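The difference between Rb1KO and WT changed with culture time for 3 member genes, by limma's test of the difference itself. From 0 to 24 h the log2 difference of Cdkn2b changed by -2.14 (adjusted p = 0.0416). From 0 to 48 h that of Cdkn1a changed by -1.43 (adjusted p = 0.0241) and that of Cdkn2c by 1.26 (adjusted p = 0.00303). Leaving out single arrays took the adjusted p of Cdkn2b to as high as 0.278 and that of Cdkn1a to 0.118. In the 14 groups of 4 or 5 arrays tested (7 genes in 2 groups), no array lay beyond Dixon's limit.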

How the results depend on the processing

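Of 35 member results past the threshold, 20 stayed past it in the same direction under every planned setting that tested them, and 0 reversed. Leaving out arrays one at a time is not part of that count, and a result that a setting could not test was not counted as lost. Without the 9 arrays with Y-linked signal 19 stayed past it and 8 did not, and the DKO results could not be fitted. Counts of changed members moved as follows. For Rb1KO against WT at 0 h (2 members), no filter, the mean over probe sets and leaving out the 9 arrays with Y-linked signal each gave 1, only the groups compared gave 0, and leaving out single arrays gave 1 to 2. At 24 h (3 members) leaving out single arrays gave 1 to 4. At 48 h (2 members) leaving out the 9 arrays gave 1, and single arrays 1 to 2. For DKO against WT (4 members) leaving out the 4 arrays that stood apart gave 2, and single arrays 2 to 4; against p107KO, single arrays gave 2 to 4. For WT from 24 to 48 h (3 members) single arrays gave 1 to 3. For Rb1KO from 0 to 24 h (5 members) leaving out the 9 arrays gave 3. For Rb1KO from 24 to 48 h (1 member) an added value of 100 gave 2, leaving out the 9 arrays 0, and single arrays 0 to 2. For the change of the Rb1KO difference from 0 to 24 h (1 member), an added value of 1, no filter, a filter at 60%, the replicate block, leaving out the 9 arrays and only the groups compared each gave 0, and single arrays 0 to 1. From 0 to 48 h (2 members) the mean over probe sets and only the groups compared gave 1, leaving out the 9 arrays 0, and single arrays 1 to 2. The filter at 60% leaves out Cdkn2b, and fits without the 9 arrays have fewer samples and no DKO; other causes were not tested.

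Labels give replicate numbers. Of 21 pairs of same-numbered arrays of the same time and different genotypes, 7 correlated above 0.1 (range -0.16 to 0.421). Pairs with different numbers were not compared, so these values cannot tell whether same-numbered arrays share a batch. The numbers were not taken as pairs in the main fit. With the replicate block, 2 of 35 calls were lost: Cdkn1a in DKO against WT (0.49, adjusted p = 0.0562) and the change of Cdkn2b from 0 to 24 h (-2.08, adjusted p = 0.0623). Depth does not apply to arrays; Cdkn2a and fresh-cell Cdkn2b lay near the floor, which limits their differences.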
